A study of Macaca fuscata with 12 samples.

Results

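The cortex around the intraparietal sulcus (IPS) was compared with the cortex around the lateral sulcus, which includes the secondary somatosensory cortex (SII), in Japanese macaques (Macaca fuscata) that had been trained to use a tool. The comparison rests on 6 of the 12 rhesus macaque Affymetrix arrays of the study: 3 IPS arrays against 3 SII arrays of trained animals, chosen by their titles. All tissue came from the left hemisphere. The 6 arrays came from 4 trained animals of 8 animals in all. The male 334M (5 years 7 months) and the male 348M (5 years 1 month) gave both regions and are array 1 and array 3 of each region. Array 2 of IPS came from the male 343M (6 years), and array 2 of SII from the female 335F (3 years 10 months), so that pair mixes region with animal, sex and age. The other 6 arrays, from 4 control animals, repeat the region comparison without training: IPS control holds the males 347M, 354M and 358M (5 years 4 months, 5 years 10 months and 3 years 9 months), and SII control the female 340F (4 years 6 months), 347M and 354M. Neither the length nor the kind of training is stated beyond its name.

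The cortex of the intraparietal sulcus combines vision with touch and the sense of limb position, and it is known for neurons that guide reaching and grasping and code the space around the hand. The secondary somatosensory cortex lies in the parietal operculum, in the upper bank of the lateral sulcus. It receives touch from both sides of the body and is known for the recognition of texture and shape and for learning by touch. Neighbouring cortical areas share the same cell types and differ mostly in graded amounts of layer-specific and activity-related transcripts, so large differences between areas are rare.

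Values are log2 units in which 0 is the median of a probe set over the 12 arrays, so a value shows where an array lies relative to the others and gives no level. A difference is IPS minus SII, and a difference of 1 is a doubling. Probe sets are called high where the signal recovered from the spacing of the deposited numbers was at least 256 units in at least 11 arrays, and middle where it was at least 16. A floor is the lowest value that the processing allowed, so such a value only bounds the signal from above. There were 4480 high, 20864 middle, 17522 low and 9900 floor probe sets. With 3 arrays a region, the difference in trained animals had a median standard error (SE) of 0.44, and so few arrays limit the precision. The labels do not say when arrays were hybridised. Their descriptions name the arrays of each region in a separate series, so region and any batch that follows it cannot be told apart.

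The labelled tissue was checked against markers of brain cell types through the signal alone. All 11 measured genes of the excitatory neuron list had a probe set with a middle or high signal, as did 13 of 14 astrocyte genes, all 13 oligodendrocyte and myelin genes and 12 of 14 GABA neuron genes. For choroid plexus and ependyma this held for 4 of 8 genes and for red blood cells for 2 of 8, with no high signal in either list. These signals show brain tissue and do not tell IPS from SII, for which no defining marker was listed. The arrays differed in quality. The mean of 27 hybridisation control probe sets was raised in SII trained 2 (0.54), SII control 1 (0.48) and IPS trained 3 (0.44), and ran from -0.13 to 0.08 elsewhere. Alpha globin was high in SII trained 2 (4.04) and IPS trained 1 (2.33), and at most 0.96 elsewhere.

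The first question was which transcripts differ between the regions of trained animals. No probe set passed a false discovery rate of 5% in limma with Benjamini-Hochberg adjustment (0 of 52766, 0%), and the smallest adjusted p was 0.0734. A plain 2-sample test per probe set also called 0. At an unadjusted p under 0.05 there were 2580 probe sets, 887 higher in IPS (1.68%) and 1693 lower (3.21%), where 2638.3 would be expected with no difference anywhere. The excess of lower values varied with the fit. It became 1028 higher and 1295 lower after quantile normalization, and 1073 higher and 1147 lower without SII trained 2. With animal as a fixed block it turned to 1413 higher and 1201 lower. It also lay in dim probe sets: 54 high-signal probe sets were higher and 14 lower, whereas 200 floor probe sets were higher and 566 lower.

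Over genes, with all probe sets of a symbol averaged, 1 of 14132 passed (0.00708%). This was ACOD1, the enzyme that makes itaconate in activated macrophages, which was named after its values were seen because it was the only gene past the threshold. Its values were -0.36, -0.45 and 0.10 in the IPS arrays and 2.15, 2.39 and 1.53 in the SII arrays, so every SII array lay above every IPS array. Of the 3 IPS arrays 2 were at the floor, so its difference of -2.24 ± 0.25 (SE; limma, adjusted p = 0.0380) is not a measured fold. In control animals the difference was -0.68 ± 0.25. There all 3 IPS arrays, and SII control 1 and 3, were at the floor, so this is not a measured fold either. The single probe set of ACOD1 did not pass among probe sets (adjusted p = 0.0734). The gene call was lost in male animals alone (adjusted p = 0.195), and the gene was not tested when only middle and high signals were kept.

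The genes described next had 1 symbol, no floor value and a middle or high signal, and are the 12 with the smallest p in each direction among those whose regions did not overlap and differed by at least 0.58. Of all probe sets, 7.87% had groups that did not overlap. These conditions were met by 107 genes in the higher and 179 in the lower direction. None of the 24 passed the test (limma adjusted p from 0.496 to 0.796), so their values are given as a description. Both within-animal differences share the sign of the group difference in each of them, because the choice requires it.

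NEFH, the heavy neurofilament subunit of large myelinated axons, was 1 of 2 high-signal genes among the 24. Its values were 0.56, 0.91 and 0.71 in the IPS arrays and -0.68, -0.23 and -0.15 in the SII arrays, a difference of 1.08 ± 0.27 (SE). The lowest IPS array was well above the highest SII array, and the difference was 1.23 within animal 334M and 0.86 within 348M. GASK1B, a Golgi-associated kinase and the other high-signal gene, lay at 0.55, 0.64 and -0.04 in IPS and at -0.82, -0.70 and -0.24 in SII (0.96 ± 0.27). Its regions were close in 348M, which differed by 0.20, and far apart in 334M, which differed by 1.37.

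On the higher side, FLT3, a receptor tyrosine kinase of blood cell progenitors, had the tightest groups: 0.56, 0.43 and 0.40 in IPS against -0.43, -0.31 and -0.40 in SII (0.85 ± 0.22). CD53, a leukocyte tetraspanin, lay at 0.47, 0.84 and 0.15 in IPS and at -1.03, -0.38 and -0.15 in SII (1.00 ± 0.27). The chemokine CXCL11 was at 0.60, 0.24 and 0.96 in IPS and at -1.19, -0.41 and -1.96 in SII (1.81 ± 0.50). The groups of these genes were separate, but their gaps were unequal, wide in FLT3 and narrow in CD53 in animal 348M (0.30).

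MMP9, the secreted gelatinase that cuts extracellular matrix, lay at 1.75, 0.68 and 1.01 in IPS and at -0.54, -0.14 and -0.74 in SII (1.64 ± 0.44). Its relative MMP2 went the other way, with -0.09, -0.01 and 0.03 in IPS and 2.34, 2.19 and 0.63 in SII (-1.74 ± 0.48). For MMP2 the IPS arrays were alike and the SII arrays spread widely. The remaining higher genes were ALDH1L2, a mitochondrial folate enzyme (1.73 ± 0.43), SP110, a nuclear body protein (1.52 ± 0.39), PPIL6 (2.44 ± 0.67), the ubiquitin protease USP48 (1.02 ± 0.28), CISH, an inhibitor of cytokine signalling (0.77 ± 0.22), and PTGIR, the prostacyclin receptor (0.91 ± 0.26). PPIL6 rested on SII trained 1 and 2 at -3.43 and -3.17, while SII trained 3 was at -0.41.

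On the lower side the smallest p belonged to MC5R, a melanocortin receptor, with -0.46, -0.48 and -0.81 in IPS against 0.39, 0.80 and 0.50 in SII (-1.15 ± 0.25). NTRK3, the receptor of neurotrophin-3, lay at -0.73, -0.30 and -0.32 in IPS and at 0.22, 0.64 and 0.70 in SII (-0.97 ± 0.25). Averaged over all probe sets of NTRK3 the difference was -0.36 ± 0.19, so it depended on the probe set. CARMIL3, a regulator of actin capping, was nearly constant in IPS at -0.69, -0.66 and -0.63, and lay at 0.28, 1.13 and 0.04 in SII (-1.13 ± 0.30).

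GTSE1, a protein of the late cell cycle, lay at -1.21, -1.04 and -0.15 in IPS and at 1.84, 2.07 and 1.86 in SII, the widest difference of the 24 (-2.72 ± 0.69). MELK, a mitotic kinase, lay at -1.06, -1.17 and -1.35 in IPS and at -0.06, 1.05 and 0.18 in SII (-1.57 ± 0.44). The others were the DNA repair nuclease ERCC5 (-1.29 ± 0.31), the glycosylation subunit KRTCAP2 (-1.14 ± 0.28), the thymic transcription factor FOXN1 (-1.19 ± 0.30), the histone methyltransferase KMT2D (-0.86 ± 0.22), the olfactory receptor OR9Q1 (-2.02 ± 0.53) and the adhesion protein NECTIN1 (-1.01 ± 0.28). Other probe sets existed for 15 of the 24 genes, and 22 of these 37 probe sets had the sign of the one described. The only other probe set of CXCL11, and that of PTGIR, had the opposite sign. The sign was shared by 1 of 5 other probe sets for SP110 and 1 of 4 for ERCC5.

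**Figure D1:**
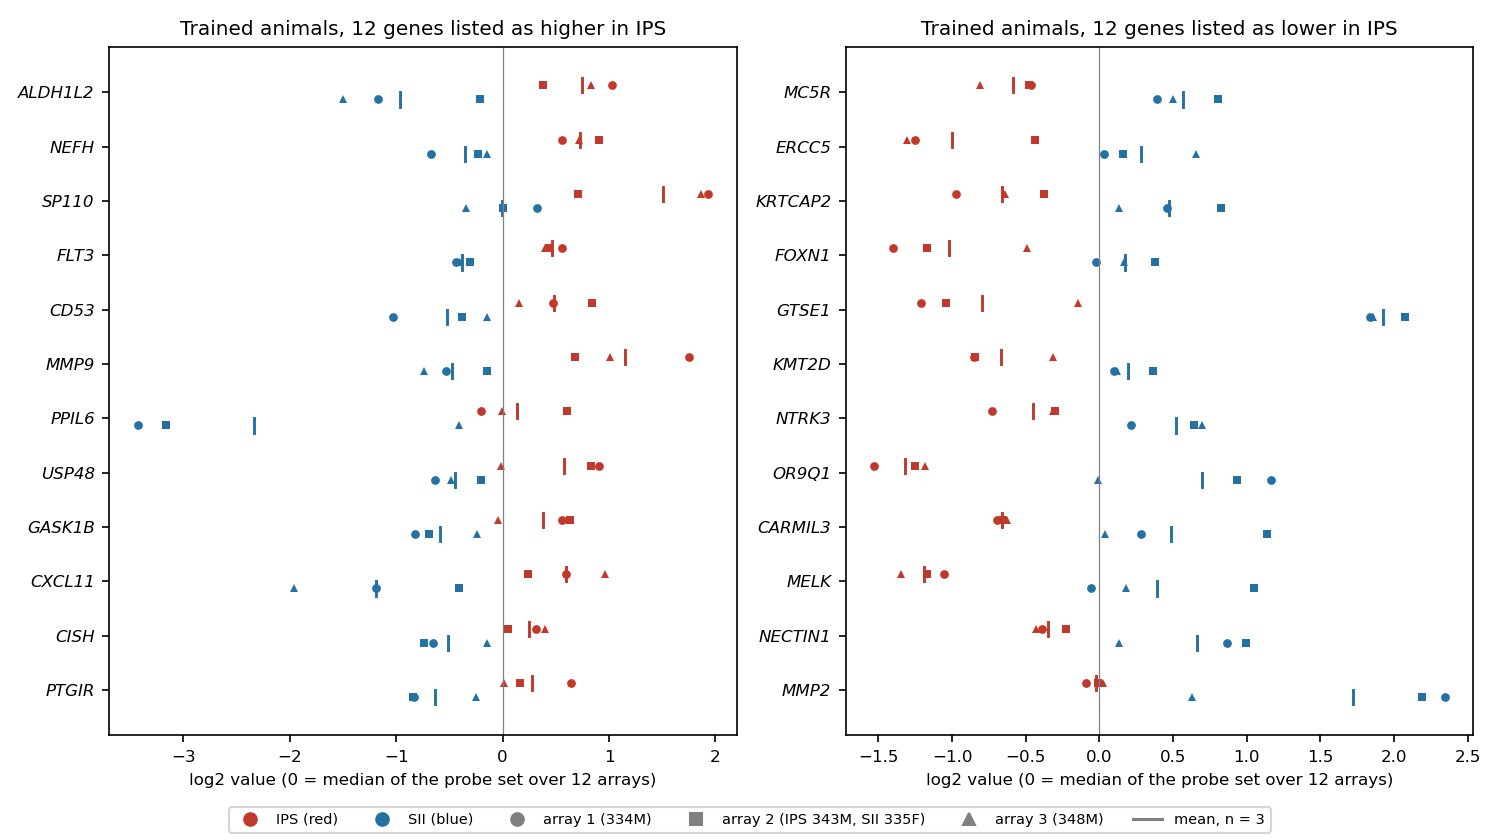
Log2 values (horizontal axis, 0 is the median of the probe set over 12 arrays) of 24 genes in the 3 IPS arrays (red) and 3 SII arrays (blue) of trained animals, with the shape giving the array number and the bar the mean of 3. The regions do not overlap in any of them because the genes were chosen so, and the differences run in size from -2.72 in GTSE1 to 0.77 in CISH.

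The control animals read the same regions on other arrays. Those arrays still entered the choice, through the spread shared by all groups in the fit, the signal class and the floor rule. Values are also centred over all 12 arrays. The sign of the difference was the same in controls for 18 of the 24 genes (75.0%) and opposite for 6, against the same sign in 67.9% of all middle or high-signal probe sets. In controls, the regions did not overlap in the same direction for 7 genes: NEFH, FLT3, CD53 and GASK1B higher in IPS, and KMT2D, NTRK3 and CARMIL3 lower. These are 29.2% of the 24, and the same held for 36.2% of the 1809 middle or high-signal probe sets whose regions were separate in trained animals, so both shares lie near the background. The control differences were 1.10 ± 0.27 for CD53, 0.75 ± 0.27 for NEFH, 0.55 ± 0.22 for FLT3, -0.98 ± 0.30 for CARMIL3 and -0.57 ± 0.25 for NTRK3. Control regions nearly touched for NEFH (nearest arrays 0.01 in IPS and -0.01 in SII) and FLT3 (0.02 and -0.02). Within 347M, NEFH differed by 0.35 and FLT3 by 0.05. For 2 genes the control regions did not overlap in the opposite direction, FOXN1 (0.77 ± 0.30 in controls) and PTGIR (-0.47 ± 0.26). MMP9 (-0.74 ± 0.44) and CXCL11 (-1.07 ± 0.50) also had the opposite sign in controls.

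High-signal probe sets, where noise is lowest, were then compared between the training groups. In trained animals the regions did not overlap for 372 of 4480, 309 higher and 63 lower in IPS. This share (8.3%) lies near that of all probe sets (7.87%). In control animals the same held for 1617 (36.1%), 1258 higher and 359 lower. Of the 309 that were higher in trained animals, 205 were also higher without overlap in controls (66.3%, against 28.1% of all high-signal probe sets), and of the 63 lower ones 26 were also lower (41.3% against 8.01%). The opposite direction was seen for 1. These 231 probe sets are 62.1% of those separated in trained animals and 14.3% of those separated in controls. Across all 4480, the trained and control differences correlated with r = 0.63, against 0.30 over the middle signals and 0.14 over all probe sets. These are descriptions across probe sets, which share arrays and RNA. The agreement depended on a few arrays. SII trained 2 and SII control 1, both from female animals and both with raised hybridisation controls, were the most alike of all array pairs (r = 0.50 over middle and high signals). Without them the high-signal r was 0.35, without IPS trained 3 as well it was 0.10, and in the 4 animals with both regions it was 0.54. In the same order, 65.1%, 45.1% and 69.8% of the probe sets higher in trained animals were also higher in controls, against 39.1%, 39.1% and 42.9% of all high-signal probe sets.

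The 231 probe sets named 127 genes higher and 14 lower in IPS, and the 12 largest of each direction are described here, a selection made after the values were seen. After NEFH and GASK1B the higher side held FGF9, a growth factor made by neurons, at 0.08, 0.29 and 0.12 in the trained IPS arrays and -0.57, -0.52 and -0.37 in the trained SII arrays (0.65 ± 0.21). In controls its IPS arrays lay at 0.01, 0.16 and 0.22 and its SII arrays at -0.01, -0.38 and -0.61 (0.47 ± 0.21). The SII arrays were low in both training groups except in SII control 1. Further members were OTUD3 (0.81 ± 0.31 in trained animals), NAP1L2 (0.64 ± 0.28), RPL32 (0.63 ± 0.25), SEC62 (0.58 ± 0.23), RNF146 (0.57 ± 0.23), TSC22D2 (0.57 ± 0.27), GTF2A1 (0.57 ± 0.25) and CAMTA1, a calcium-responsive transcription factor of neurons (0.57 ± 0.21). DYNC1LI2, a light intermediate chain of the dynein motor, differed by 0.57 ± 0.18 in trained animals and by only 0.10 ± 0.18 in controls, a gap that did not pass a test (unadjusted p = 0.0878, limma).

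On the lower side SCN3B, a beta subunit of voltage-gated sodium channels, led with -0.31, -0.06 and -0.46 in the trained IPS arrays and 0.16, 1.06 and 0.40 in the trained SII arrays (-0.81 ± 0.26). In controls it lay at -0.32, -0.12 and -0.26 in IPS and at 0.35, 0.06 and 0.42 in SII. A further high-signal probe set of SCN3B gave -0.66 ± 0.28 in trained and -0.88 ± 0.28 in control animals. The other lower genes were CD200, a neuronal ligand that restrains microglia (-0.72 ± 0.34), the lipid kinase PI4KA (-0.53 ± 0.21), the transcription factor NFIB (-0.48 ± 0.22), TRANK1 (-0.48 ± 0.22), APC2 (-0.48 ± 0.23), USP42 (-0.45 ± 0.25), the splicing factor RBFOX2 (-0.37 ± 0.25), the calcium sensor NCS1 (-0.36 ± 0.22), ANKS1B of the postsynaptic density (-0.32 ± 0.22), SPG7 (-0.27 ± 0.18) and CERS6 (-0.27 ± 0.20). CD200 rested in part on IPS trained 2 at -1.28, with the other IPS arrays at -0.05 and -0.04. Other probe sets existed for 20 of these 24 genes, and 22 of the 37 had the sign of the one described. None did for TSC22D2, GTF2A1, TRANK1, APC2, USP42 and NCS1.

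**Figure D2:**
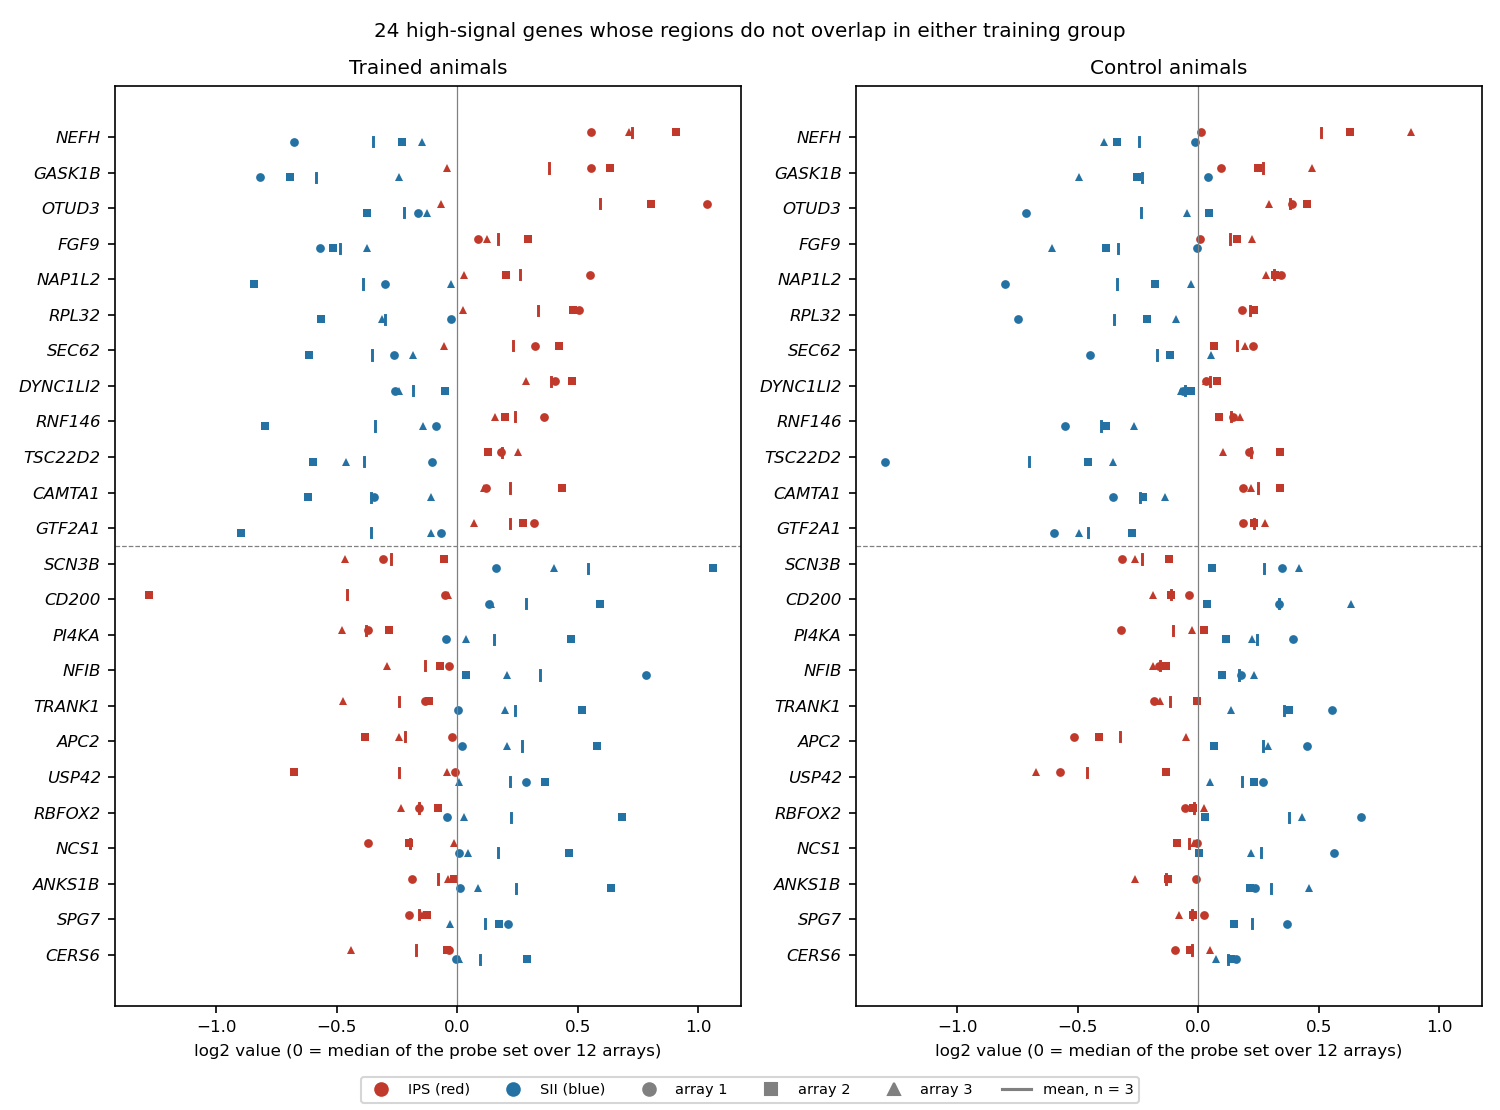
Log2 values (horizontal axis) of 24 high-signal genes in trained animals (left) and control animals (right), IPS red and SII blue, bars the mean of 3 arrays. The 12 genes above the dashed line have all IPS arrays above all SII arrays in both panels, the 12 below have the reverse, and the list was chosen for that.

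Apart from SCN3B, the genes TCF7L2 and FAM13A also had 2 such probe sets each. TCF7L2, a transcription factor of Wnt signalling that is also used in the oligodendrocyte lineage, had probe sets that differed by 0.53 ± 0.18 and 0.49 ± 0.20 in trained animals and by 0.59 ± 0.18 and 0.53 ± 0.20 in controls. For the first of them the trained IPS arrays lay at 0.23, 0.13 and 0.51 and the trained SII arrays at -0.30, -0.28 and -0.13. Within single animals that probe set differed by 0.53 in 334M, 0.64 in 348M, 0.58 in 347M and 0.55 in 354M, so all 4 animals with both regions showed nearly the same difference. The shared sign was set by the choice of probe sets separate in both training groups, and the size was not. The other probe set varied more, with 0.39, 0.74, 0.84 and 0.45 in the same animals. Averaged over the 6 probe sets of TCF7L2 the difference was smaller (0.30 ± 0.17 in trained animals, 0.19 ± 0.17 in controls).

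Such agreement between animals was not general. Over the 4480 high-signal probe sets, the within-animal differences of the trained animals 334M and 348M correlated negatively (r = -0.37, -0.24 over middle signals), and 42.2% of the probe sets had the same sign in both. The control animals 347M and 354M correlated positively (r = 0.58, same sign in 72.7%). Animal 348M had r = 0.72 to 347M and 0.39 to 354M, whereas 334M had r = -0.18 and 0.09 to them. To the unpaired control arrays, 358M minus 340F, the order was the other way, with r = -0.00 for 348M and 0.24 for 334M. The unpaired trained arrays, 343M minus 335F, had r = 0.28 to 334M and -0.17 to 348M, and r = 0.62 to the unpaired control arrays. To 347M and 354M the unpaired trained arrays had r = 0.09 and 0.31, and the unpaired control arrays 0.29 and 0.54. None of these 6 differences shares an array with another.

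**Figure D3:**
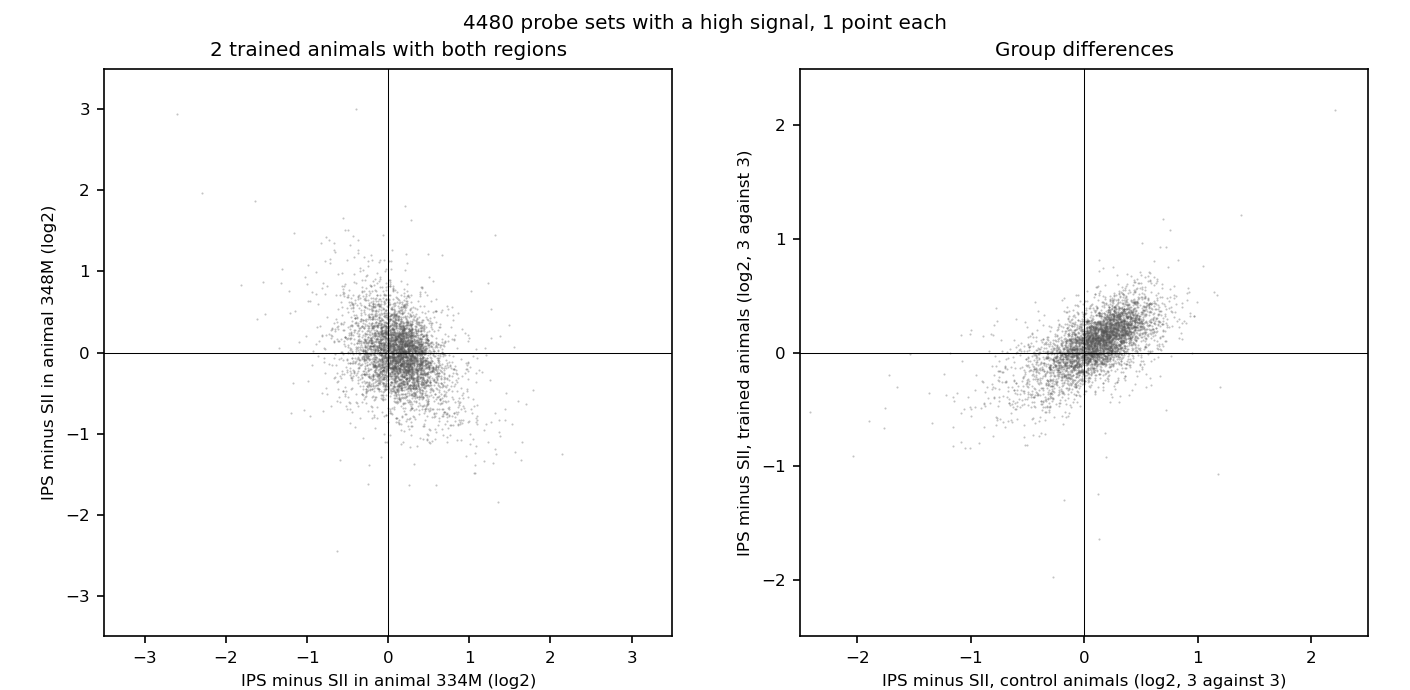
IPS minus SII (log2) of 4480 high-signal probe sets, 1 point each. On the left, animal 348M against animal 334M slopes downwards (r = -0.37), and on the right, the trained group difference against the control group difference slopes upwards (r = 0.63, and 0.10 without the 3 arrays with raised hybridisation controls).

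The readings of RNA quality also differed between these pairs of arrays. On these arrays the 3' minus 5' reading of actin rises as the RNA or its copying becomes less complete. It was 1.17, 0.63 and -1.54 in SII trained 1 to 3 and -0.79, 0.54 and 1.37 in IPS trained 1 to 3. The IPS array thus read 1.96 below the SII array in 334M (-1.96) and 2.92 above it in 348M. The control animals 347M and 354M also had a higher reading in IPS (1.89 and 1.94), and the unpaired arrays differed little (-0.09 in trained and -0.20 in control animals). The GAPDH reading gave -1.01 in 334M and 1.24 in 348M. With the actin reading as a covariate, a fit chosen after the data were seen, 0 probe sets passed the region test in trained animals, and 3347 had an unadjusted p under 0.05. The part of RNA quality in single genes was not tested.

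**Figure D4:**
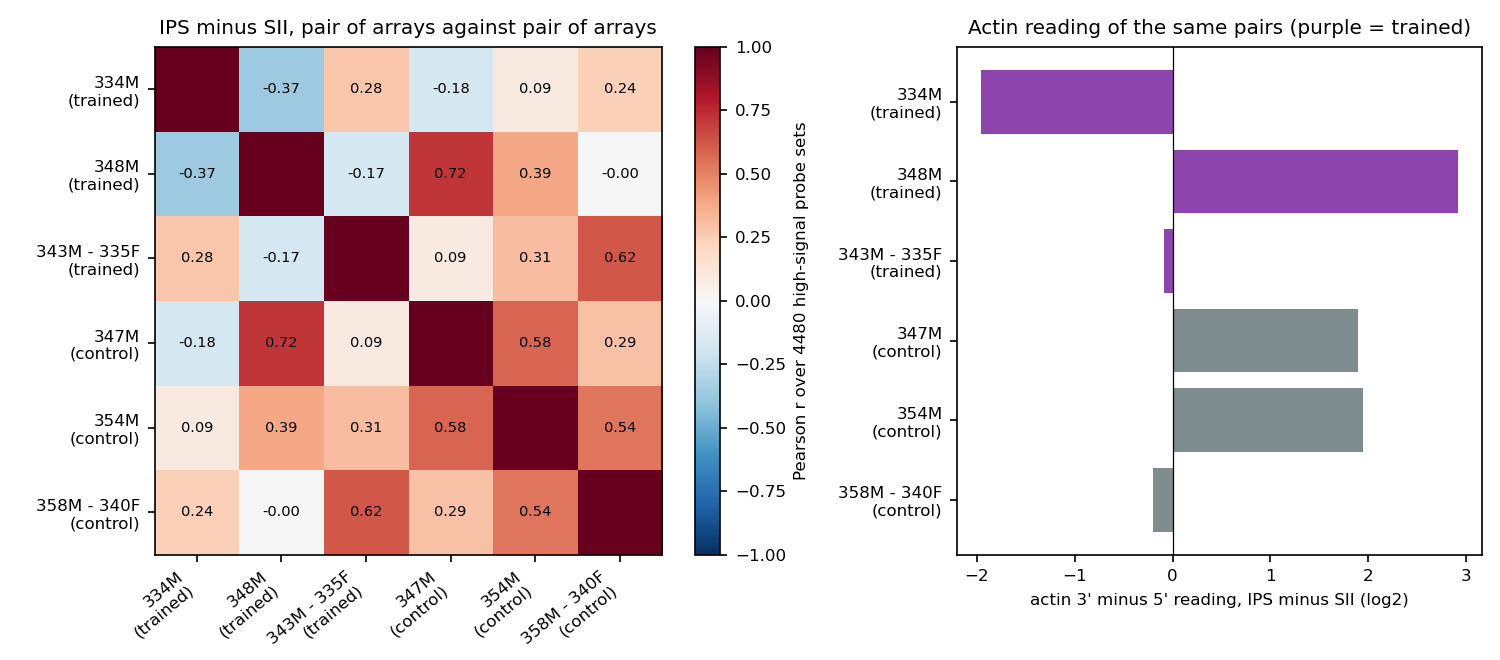
Left, Pearson r between the IPS minus SII differences of 6 pairs of arrays over 4480 high-signal probe sets. Right, the actin 3' minus 5' reading of the same pairs (log2, IPS minus SII, purple trained, grey control). It is -1.96 in 334M and between 1.89 and 2.92 in 348M, 347M and 354M, which correlate positively with each other. Positive r also occurs at unlike readings, as between 354M (1.94) and 358M minus 340F (-0.20), with r = 0.54. The unpaired trained and control arrays (-0.09 and -0.20) have r = 0.62.

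Gene groups that mark cortical areas, layers, cell types and synapses were described by 35 lists, fitted over genes. They held 539 measured genes, of which 0 passed 5%. An unadjusted p under 0.05 was reached by 11 in the higher direction (2.04%, against 1.77% of all genes) and by 19 in the lower (3.53%, against 3.42%). These shares lie near the background. Over all genes 6722 were higher and 7410 lower, with a median of -0.02. List medians ran from -0.44 to 0.30, and 18 of the 35 kept their sign under quantile normalization, median centring, male animals alone and middle or high signals alone. In 20 lists the medians of 334M and 348M had opposite signs.

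Among the factors that pattern areas and neuronal identity, 8 of 28 were higher and 20 lower in IPS (median -0.12). FOXP2, a factor of deep-layer projection neurons, lay at -0.23, 0.02 and -0.10 in IPS and at 0.30, 0.43 and 0.74 in SII (-0.60 ± 0.20). NFIB lay at -0.67, 0.08 and -0.25 in IPS and at 0.49, 0.16 and 0.26 in SII (-0.60 ± 0.20). The groups were separate for both, and the NFIB difference was also present in controls (-0.44 ± 0.20), whereas that of FOXP2 was -0.09 ± 0.20 there. FOXP2 includes a probe set with floor values.

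Layer markers gave small values. In the upper layer list 4 of 12 were higher and 8 lower (median -0.10), led by the glycine receptor GLRA3 (-0.92 ± 0.27) and CARTPT (-0.72 ± 0.39). In the deep layer and subplate list 7 of 18 were higher and 11 lower (median -0.19). TOX, from that list, went the other way with 0.62, 0.27 and 0.08 in IPS and -0.39, -0.77 and -0.11 in SII (0.74 ± 0.26), and with 0.70 ± 0.26 in controls.

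Genes of fast-firing neurons and large axons were mostly higher in IPS, 9 of 11 with a median of 0.29, led by NEFH and followed by KCNAB1, a potassium channel subunit (0.40 ± 0.24). The median was 0.35 within 334M and -0.00 within 348M, and in controls 6 of 11 were higher (median 0.11). Genes enriched in primary visual cortex gave 5 of 6 higher (median 0.30), with NEFH again first and the serotonin receptor HTR2A next (0.36 ± 0.32). In controls 2 of these 6 were higher. Genes enriched in association or limbic cortex gave 5 of 12 higher (median -0.11), led by the retinol carrier RBP4 (-0.42 ± 0.24) and the neuropeptide GRP (-0.51 ± 0.29).

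Cell type markers showed no list with a gene past the test. In bulk tissue, fewer cells of a type and less RNA per cell cannot be told apart. Microglia and macrophage genes were higher in 7 of 20 and lower in 13 (median -0.17, in controls -0.34). C1QB, a chain of the complement protein C1q made by microglia, lay at -0.16, -0.21 and -0.35 in IPS and at 0.43, 0.54 and 0.29 in SII (-0.66 ± 0.16, limma adjusted p = 0.577). All IPS arrays were below all SII arrays, and the difference was -0.59 in 334M, -0.64 in 348M, -0.73 in 347M and -0.98 in 354M. CSF1R, the growth factor receptor that microglia depend on, differed by -0.62 ± 0.24, with -0.55 ± 0.24 in controls. The mean of the list nevertheless overlapped between the regions, from -0.23 to 0.11 in IPS and from 0.01 to 0.17 in SII.

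Excitatory neuron genes were higher in 5 of 11 (median -0.09, 0.04 after quantile normalization), with CAMK2A at 0.71 ± 0.37 and CUX2 at -0.37 ± 0.21. GABA neuron genes were higher in 3 of 14 (median -0.12), led by neuropeptide Y (NPY, -0.78 ± 0.38) and KIT (0.39 ± 0.20). Astrocyte genes were higher in 6 of 14 (median -0.01, positive under both other scalings), led by NDRG2 (0.36 ± 0.21) and APOE (-0.61 ± 0.36).

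Oligodendrocyte and myelin genes were higher in 8 of 13 with a median of 0.02 (-0.03 with middle or high signals alone), which hid the spread between animals: the median was 0.98 within 334M and -0.04 within 348M. The mean of the list was -0.50 in SII trained 1 and 0.63 in SII trained 2, and from -0.11 to 0.33 in the IPS arrays. OLIG2, the lineage factor, led it (0.57 ± 0.31), followed by MYRF (-0.41 ± 0.29), and the precursor list (6 of 8 higher, median 0.13, -0.05 with middle or high signals alone) was led by OLIG2 and CSPG4 (-0.52 ± 0.32). White matter in the sample is read by the same genes, and its part in other results was not tested.

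Markers of neighbouring tissue were read for the same reason. Striatum and claustrum genes were higher in 3 of 15 (median -0.17), led by SLC35D3 (0.71 ± 0.49) and RGS9 (-0.53 ± 0.54), and hippocampus and amygdala genes in 5 of 6 (median 0.29), led by CYP26B1 (1.68 ± 0.82) and TDO2 (1.20 ± 0.72). Choroid plexus and ependyma genes were higher in 1 of 8 (median -0.44), led by RSPH1 (-0.42 ± 0.21) and CLIC6 (-1.06 ± 0.68), with a list mean from -0.72 to 0.22 in IPS and from -0.17 to 0.70 in SII. Endothelial and pericyte genes were higher in 6 of 17 (median -0.06, positive after quantile normalization, in males and with middle or high signals), led by FLT1 (-0.80 ± 0.33) and ENG (-0.67 ± 0.30). Meningeal genes gave 7 of 14 higher (median 0.01, negative with middle or high signals and in males), led by COL1A1 (0.84 ± 0.43) and LUM (0.66 ± 0.49). Red blood cell genes gave 3 of 8 higher (median -0.15, positive after quantile normalization, in males and with middle or high signals), with HBM (1.10 ± 0.63) and GYPC (0.25 ± 0.34) first, and T cell and granulocyte genes 5 of 10 (median 0.06, negative in males), with NKG7 (-0.65 ± 0.32) and GZMA (-0.61 ± 0.38) first. Among these neighbouring tissue and blood lists, the list mean separated the regions for hippocampus and amygdala genes alone, from 0.18 to 0.44 in IPS and from -0.71 to 0.08 in SII. The median of these 6 genes was 0.05 within 334M and 0.92 within 348M, and 3 of them had the same sign in controls. The list means of the upper layer and primary visual cortex genes above were also separate between the regions, and those of no other list among the 35. For comparison, 7.87% of all probe sets had groups that did not overlap, so a few separate lists lie near the background.

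**Figure D5:**
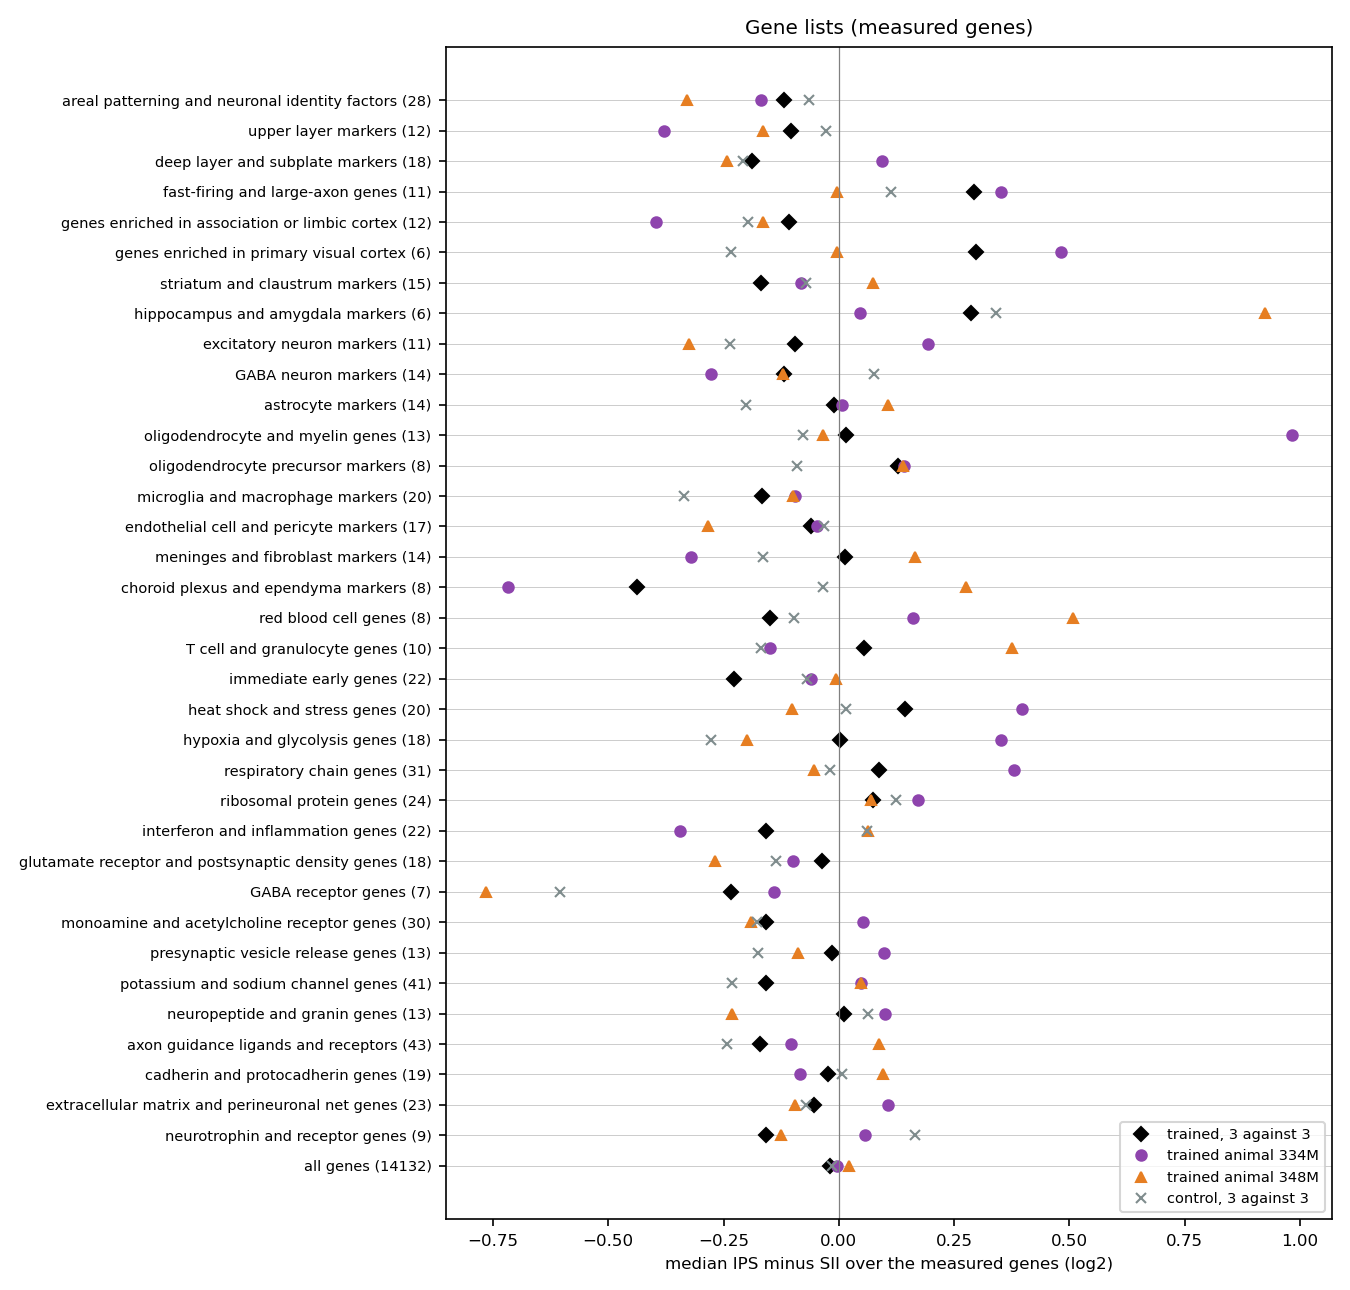
Median IPS minus SII (log2, horizontal axis) of the measured genes of each list, with their number in brackets, for the trained groups (black), the trained animals 334M (purple) and 348M (orange), and the control groups (grey crosses). The black medians lie between -0.44 and 0.30, and the animals 334M and 348M often fall on opposite sides of 0, as for oligodendrocyte genes (0.98 and -0.04).

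Synaptic and channel genes followed. Potassium and sodium channel genes were higher in 14 of 41 and lower in 27 (median -0.16, 0.01 in males alone). Averaged over its probe sets SCN3B differed by -0.69 ± 0.21, and KCNIP2, which tunes A-type potassium currents, by -0.72 ± 0.27. KCNIP2 lay at -0.25, -0.48 and -0.27 in IPS and at 0.05, 0.98 and 0.21 in SII, with -0.68 ± 0.27 in controls. Glutamate receptor and postsynaptic density genes were higher in 8 of 18 (median -0.04, 0.00 after median centring), led by CAMK2B (-0.70 ± 0.22) and the AMPA receptor subunit GRIA1 (-0.39 ± 0.19). CAMK2B, a subunit of the calcium kinase of the synapse, lay at -0.40, -0.08 and -0.01 in IPS and at 0.14, 0.71 and 0.77 in SII, so its groups were separate, although 1 of its probe sets had floor values.

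GABA receptor genes were higher in 2 of 7 (median -0.23), led by GABRA3 (-0.50 ± 0.29) and GABRA4 (-0.40 ± 0.30). Their median was -0.14 within 334M and -0.76 within 348M, and -0.60 in controls. Monoamine and acetylcholine receptor genes were higher in 11 of 30 (median -0.16), led by the nicotinic receptor subunit CHRNA3 (1.42 ± 0.48, with no middle or high signal) and the adrenergic receptor ADRA2B (0.73 ± 0.35). Presynaptic release genes were higher in 6 of 13 (median -0.01, positive under both other scalings), led by SV2C (0.74 ± 0.36) and PCLO (-0.48 ± 0.29). Neuropeptide and granin genes were higher in 7 of 13 (median 0.01, negative in males), led by NPY and CARTPT.

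Among axon guidance ligands and receptors 10 of 43 were higher and 33 lower (median -0.17). Of the 43, 31 had the same sign in controls, against 8871 of 14132 over all genes. The median was -0.10 within 334M and 0.09 within 348M, and 2 members were higher and 2 lower at an unadjusted p under 0.05. The 2 smallest p belonged to genes on the higher side. EPHA3, an ephrin receptor, lay at 0.46, 0.03 and -0.06 in IPS and at -1.06, -0.95 and -0.71 in SII (1.05 ± 0.31), and differed by 1.00 ± 0.31 in controls. EFNB1, an ephrin ligand, lay at 0.18, -0.04 and -0.20 in IPS and at -0.50, -0.85 and -0.37 in SII (0.55 ± 0.20), and differed by 0.45 ± 0.20 in controls. Both had separate groups in trained animals, and EPHA3 includes a probe set with floor values. Cadherin and protocadherin genes were higher in 6 of 19 (median -0.02, positive after median centring), led by CDH1 (1.38 ± 0.80) and PCDH11X (-0.35 ± 0.21). Extracellular matrix genes were higher in 11 of 23 (median -0.05, positive under both other scalings), led by MMP9 and by TNC, a matrix glycoprotein (-1.15 ± 0.37).

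Neurotrophin and receptor genes were higher in 3 of 9 (median -0.16, 0.07 in males alone), led by GDNF and NGFR (0.79 ± 0.39). GDNF, a survival factor of dopamine and motor neurons, lay at -0.80, -0.89 and -0.45 in the IPS arrays and at 0.09, 0.20 and 0.38 in the SII arrays of trained animals (-0.93 ± 0.24), with the opposite sign in controls (1.31 ± 0.24). Its only probe set had floor values, so these are not measured folds, and the difference between the training groups did not pass over genes (limma adjusted p = 0.421).

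Activity, stress and energy genes closed the set. Immediate early genes, which neurons switch on within minutes of activity, were higher in 6 of 22 and lower in 16 (median -0.23, 0.04 in males alone), led by JUND (-0.75 ± 0.37) and DUSP4 (0.83 ± 0.45). Their list mean was 0.62 in SII trained 2 and between -0.35 and 0.10 in the other trained arrays. Respiratory chain genes were higher in 24 of 31, but by little (median 0.09), and the median was 0.38 within 334M and -0.05 within 348M. In controls 15 of these 31 genes were higher (median -0.02). SDHC and SDHA, subunits of succinate dehydrogenase, led them. SDHA lay at 0.26, 0.15 and 0.15 in IPS and at -0.22, -0.17 and -0.36 in SII (0.44 ± 0.17), and its difference was 0.48, 0.52, 0.44 and 0.45 within 334M, 348M, 347M and 354M. SDHC differed by 0.94 ± 0.35.

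Heat shock and stress genes were higher in 12 of 20 (median 0.14), led by the small heat shock protein CRYAB (0.93 ± 0.38) and HSPA8 (0.46 ± 0.20). Hypoxia and glycolysis genes were split 9 to 9 (median 0.00, negative with middle or high signals), led by the glycolytic enzymes GPI (-0.51 ± 0.18, and -0.51 ± 0.18 in controls) and TPI1 (-0.59 ± 0.28). Ribosomal protein genes were higher in 14 of 24 (median 0.07), led by RPL32 (0.62 ± 0.39) and RPL23 (0.37 ± 0.23). Interferon and inflammation genes were higher in 9 of 22 (median -0.16), led by IFI27 (-1.41 ± 0.57) and IRF1 (-0.41 ± 0.20), neither with a middle or high signal.

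The last question was whether the region difference of trained animals differed from that of controls. In this test of the difference between differences, 0 of 52766 probe sets passed in limma (0%), the smallest adjusted p was 0.302, and 1944 had an unadjusted p under 0.05. The 4 genes of each direction with the smallest p among those with a middle or high signal and no floor value are given as values that did not pass (adjusted p from 0.777 to 1.00). Some other probe sets had a smaller p, such as CD58 with floor values (limma adjusted p = 0.415). An unnamed middle-signal probe set, left out for want of a symbol, also did (-3.99 ± 0.52, limma adjusted p = 0.302). UBASH3B, a regulator of receptor signalling, lay at -2.89, -3.03 and -3.45 in the control IPS arrays and at 0.56, 0.34 and 0.35 in the control SII arrays. In trained animals it lay at 0.08, 0.53 and -1.29 in IPS and at -2.30, 0.07 and -0.07 in SII, so the groups overlapped there. The trained minus control difference was 4.07 ± 0.88. PPP1R10, a phosphatase regulator in the nucleus, gave 3.19 ± 0.71, C1H1orf43 differed by 0.63 ± 0.25 in trained and -0.87 ± 0.25 in control animals, and ASB12 gave 2.11 ± 0.51.

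In the opposite direction FOXN1 (-1.96 ± 0.42) was the only gene of these 8 that is also among the 24. IKBKE, a kinase of interferon induction, gave -1.79 ± 0.42: its control IPS arrays lay at 1.42, 1.52 and 1.53, and the other 9 arrays between -1.01 and 0.27. NSD3, a histone methyltransferase, gave -1.14 ± 0.30, and PEAK1, a cytoskeletal pseudokinase, gave -1.36 ± 0.36. PEAK1 lay at -1.20, -1.21 and -1.09 in the control SII arrays and at -0.71, 0.17 and -0.19 in the trained ones. In each of these 8 genes but FOXN1, the difference between regions was larger in size in control than in trained animals.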

How the data were processed

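Expression was measured on 12 arrays. The values used were deposited by the authors as log2 values, centred so that each probe set has a median of 0. MAS5 is named per the submitters' processing notes, with no version, and how arrays were scaled is not stated in the labels or headers. Of 52865 probe sets, 99 controls were left out. Of the others, 24956 had 1 gene symbol in the platform annotation, 361 several and 27449 none. Signal classes and the floor were recovered from the spacing of the deposited numbers, which bore out base 2. The floor differed between arrays by up to 1.67.

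limma 3.58.1 (R 4.3.3, statmod 1.5.0) fitted 4 group means over all 12 arrays, with the correlation between arrays of 1 animal (0.0474; 0.0862 over genes; kept fixed in alternatives), and Benjamini-Hochberg adjustment at 5%. Tests were 2-sided. An exact permutation test of 3 against 3 cannot go below 0.10. Replicate numbers 1 and 3 of trained animals are 1 animal each, per the labels, and number 2 is not. Deviations of these arrays correlated at 0.06, 0.02 and -0.09. Nothing says whether extractions were repeated, so p-values measure the spread between arrays. The fit without the animal correlation was tested on simulated independent arrays, so the animal correlation was not covered.

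The comparison, lists and rules were chosen with earlier results of these data known. Named genes followed the rule given with them, and for each list the 2 smallest p were named, plus some chosen after their values were seen: ACOD1, SLC6A3, HOXA9 and the genes separated in both training groups. Alternatives covered normalization, array weights, animal, sex, age, filters, floor, the test and single arrays left out.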

Additional observations from a re-analysis of the deposited data

How the results depend on the processing

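For trained animals, 0 probe sets passed 5% in the main analysis. The count was 3 after quantile normalization (ACOD1, SLC6A3 and an unnamed probe set, none with a middle or high signal), 1 with middle or high signals only, 5 with 1 common floor, and 0 to 2 with single arrays left out (2 without SII trained 3). Against 2580 probe sets at an unadjusted p under 0.05, there were 1184 with middle or high signals only, 1320 with the plain 2-sample test and 786 with a fold threshold, as fewer probe sets or stricter tests imply, and 2220 to 3578 with single arrays left out. The replicate block in the 6 trained arrays gave 0 past 5% and 2205 at an unadjusted p under 0.05, and changed no call. For trained minus control the count was 0 to 2 with single arrays left out (2 without IPS trained 1) and 1 with the actin covariate, which was chosen after seeing the data, and the cause was not tested. The 1 gene past 5% (ACOD1) became 0 with middle or high signals only and 0 in males. The 24 named genes kept their sign in all 24 alternatives, and none passed 5% in any. Their regions were chosen not to overlap, so the kept sign was largely set by the choice. Among medians of lists and named genes, 749 values kept their call or moved by less than the replicate spread, and 37 list medians moved by more, 16 of them within 334M and 15 within 348M. The high-signal correlation between trained and control differences (0.63) was 0.10 without the 3 arrays with raised hybridisation controls, chosen after seeing the data, and the cause was not tested. Values near the floor limit what dim probe sets can show.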

Other observations

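A few unnamed high-signal probe sets differed between regions through single arrays. In 3 of them IPS trained 2 (animal 343M) alone lay at -6.19, -5.14 and -3.81, and the other 11 arrays lay between -0.19 and 0.60. In another 2, SII trained 2 lay at -6.66 and -4.02 and SII control 1 at -7.03 and -4.98, the arrays of the female animals, so their region differences of 2.13 ± 2.01 and 1.21 ± 1.38 coincide with the sex of the animals.

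The probe sets with the smallest p in trained animals were mostly dim. Among the 25 smallest, 23 were lower in IPS. The smallest p of all, however, belonged to an unnamed probe set with a middle signal and no floor value in the trained arrays. It lay at -2.03, -2.56 and -2.15 in IPS and at 0.54, 0.49 and 0.04 in SII (-2.60 ± 0.28, in controls -0.63 ± 0.28). It did not pass in the main analysis (limma adjusted p = 0.0734). It passed with middle or high signals only (limma adjusted p = 0.0187) and with 1 common floor (0.0394), and in no other alternative. SLC6A3, the dopamine transporter of midbrain neurons, gave -3.02 ± 0.37 with a low signal (limma adjusted p = 0.0734), and HOXA9, a factor of the posterior body axis, gave -2.13 ± 0.36 with floor values in 2 IPS arrays.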
